A study of Mus musculus with 40 samples.

Results

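The serum- and glucocorticoid-regulated kinases are 3 related protein kinases, encoded in the mouse by Sgk1, Sgk2 and Sgk3. They were found in the gene count table by their Ensembl identifiers, which gave 3 of the 52636 genes in the table, and all 3 passed the filter on low counts. The family was chosen by the Sgk2 counts, with earlier results of these data known: Sgk2 was higher in brown fat 5 d after blockade of the Notch ligands Jag1 and Jag2. The 5 d antibody values of all 3 genes are therefore given as a description, without a test.

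Brown adipose tissue, the fat depot that burns fuel to make heat, was sampled from male C57BL/6 mice (age given as 10 to 12 weeks in one label and 10 to 14 in another). Each of the 8 groups held 5 mice, and all 40 mice had 1 intraperitoneal antibody dose. Control mice received anti-ragweed isotype antibody at 40 mg/kg, and Jag antibody mice received anti-Jag1 and anti-Jag2 at 20 mg/kg each. Both kinds were collected at 15 h, 5 d and 7 d, and further mice of both kinds were collected at 7 d after daily T4 (1 ug/g) and T3 (0.05 ug/g) from day 2, called hormone here. No mouse was left without an antibody, so the controls also carry an injection, and the antibodies were given to the whole animal. The labels do not say that mice of a group were dosed or processed apart, so the p-values measure the spread between these mice.

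SGK kinases belong to the AGC family and resemble AKT: lipid signals from PI3-kinase lead PDK1 and mTOR complex 2 to phosphorylate and activate them. SGK1 is mainly set by its transcription, which glucocorticoids, mineralocorticoids and serum induce quickly, and its protein is short-lived. SGK3 carries a PX domain that binds phosphoinositides on endosomes, and SGK2 is the least studied and is known mostly from liver, kidney and pancreas. Known targets include the ubiquitin ligase NEDD4-2 (Nedd4l), NDRG1 and FOXO transcription factors, and through these SGKs raise the activity of ion channels and nutrient transporters. In fat, SGK1 has been linked to the action of glucocorticoids and insulin.

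The plus-strand Sgk1 gene spans chr10:21882184-21999903 on GRCm38 (ENSMUSG00000019970) and has several start sites. RefSeq promoter windows on GRCm38.p6 were available for 6 of them. They were searched over the 250 bases before each start, on both strands, for glucocorticoid, thyroid hormone, RBPJ and TATA motifs. RBPJ is the DNA-binding partner of Notch. Of these windows, 2 are printed because they hold the classic steroid element and the start nearest the 3′ end, with the motif in capitals.

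Sgk1 start at 21993890, chr10:21993640-21993889, plus strand, glucocorticoid response element in capitals: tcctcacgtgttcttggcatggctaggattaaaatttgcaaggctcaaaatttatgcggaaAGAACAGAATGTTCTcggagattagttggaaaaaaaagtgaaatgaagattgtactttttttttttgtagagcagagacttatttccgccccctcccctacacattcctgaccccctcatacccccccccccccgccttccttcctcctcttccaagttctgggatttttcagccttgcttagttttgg
Sgk1 start at 21994666, chr10:21994416-21994665, plus strand, TATA box in capitals: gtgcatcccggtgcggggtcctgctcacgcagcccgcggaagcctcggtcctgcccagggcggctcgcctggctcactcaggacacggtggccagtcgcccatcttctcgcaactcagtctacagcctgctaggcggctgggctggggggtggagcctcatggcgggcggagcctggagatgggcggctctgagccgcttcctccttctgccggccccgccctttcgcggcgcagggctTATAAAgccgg

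The element, AGAACA and TGTTCT with any 3 bases between them, has its first base at -189 from the start it is printed with and lies 965 bases before the start at 21994666. It occurs in 3 of 32851 promoter windows of this length, or 0.00913%. The single half-site AGAACA, which the whole element contains, is in 16.1% of windows. The TATAAA motif is also much more common than the element, at 12.4% of windows. The marked TATAAA has its first base at -11 from the start at 21994666. Another TATAAA, at -28 from the start at 21992223, lies in a window that is not printed. The RBPJ core TGGGAA (21.6% of windows) and the thyroid hormone direct repeat, AGGTCA given again after any 4 bases (0.0152%), had no match in the Sgk1 windows, and the thyroid hormone half-site AGGTCA (14.0%) matched in 2 of them. These matches describe the letters only. The table held no Sgk2 or Sgk3 window.

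The 40 libraries held 12217623 to 36511893 counts in genes, with a median of 18949808. Brown fat identity was checked with 8 markers (Ucp1, Cidea, Adipoq, Plin1, Ppargc1a, Dio2, Cox8b and Elovl3), all detected, which summed to 2641 to 42791 CPM (counts divided by library size) per mouse. Muscle and myeloid markers moved with some groups. Skeletal muscle markers summed to 1018 to 175926 CPM in control mice at 5 d against 0.878 to 43.9 CPM in Jag antibody mice at 5 d. Myeloid markers summed to 299 to 6275 CPM in control mice at 15 h, 112 to 274 CPM in control mice at 7 d, and 551 to 1111 CPM in control mice given hormone.

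Sgk1 was the most abundant family member. Per kilobase of exon its median was 14.5 CPM over the 40 mice, against 1.15 CPM for Sgk3 and 0.919 CPM for Sgk2, and Sgk1 ranked first in 40 of 40 mice. On this scale the order of Sgk2 and Sgk3 often differed between antibodies. The scale divides by all annotated exon bases, 14311 for Sgk3 and 3412 for Sgk2, so the order depends on these lengths. In unscaled CPM the Sgk2 group mean was above that of Sgk3 only in Jag antibody mice at 5 d (21.5 against 14.0). On this length-scaled level Sgk2 was above Sgk3 in 15 of the 20 Jag antibody mice and in 2 of the 20 control mice, a count that includes the 5 d mice by which the family was chosen. Without those mice the counts by group were 3 of 5 at 15 h, 3 of 5 at 7 d and 4 of 5 with hormone in Jag antibody mice, and 1, 1 and 0 of 5 in the matched control groups.

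**Figure D1:**
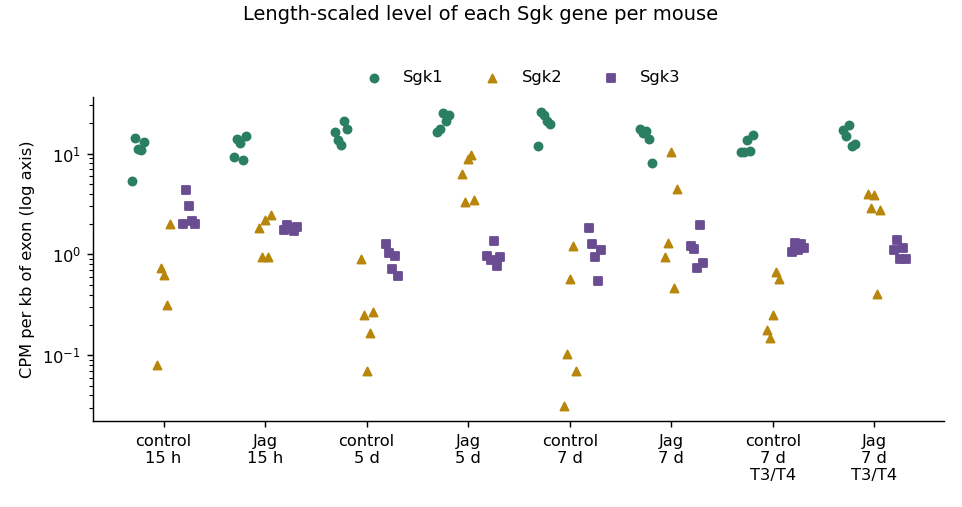
CPM per kb of exon (log axis) of Sgk1, Sgk2 and Sgk3 in each mouse of the 8 groups; each point is 1 mouse. Sgk1 is the highest gene in 40 of 40 mice, and Sgk2 lies above Sgk3 in 15 of 20 Jag antibody mice.

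The members also differed in how steady they were. The median SD within a group, on the log2 CPM scale, was 0.33 for Sgk1, 0.36 for Sgk3 and 1.26 for Sgk2. Group means spanned 0.98 for Sgk1, 1.53 for Sgk3 and 4.68 for Sgk2. Sgk2 rested on 2 to 953 counts per library, Sgk1 on 483 to 4386 and Sgk3 on 61 to 1420. A single Sgk2 value in a control mouse is therefore the least precise of the family.

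**Figure D2:**
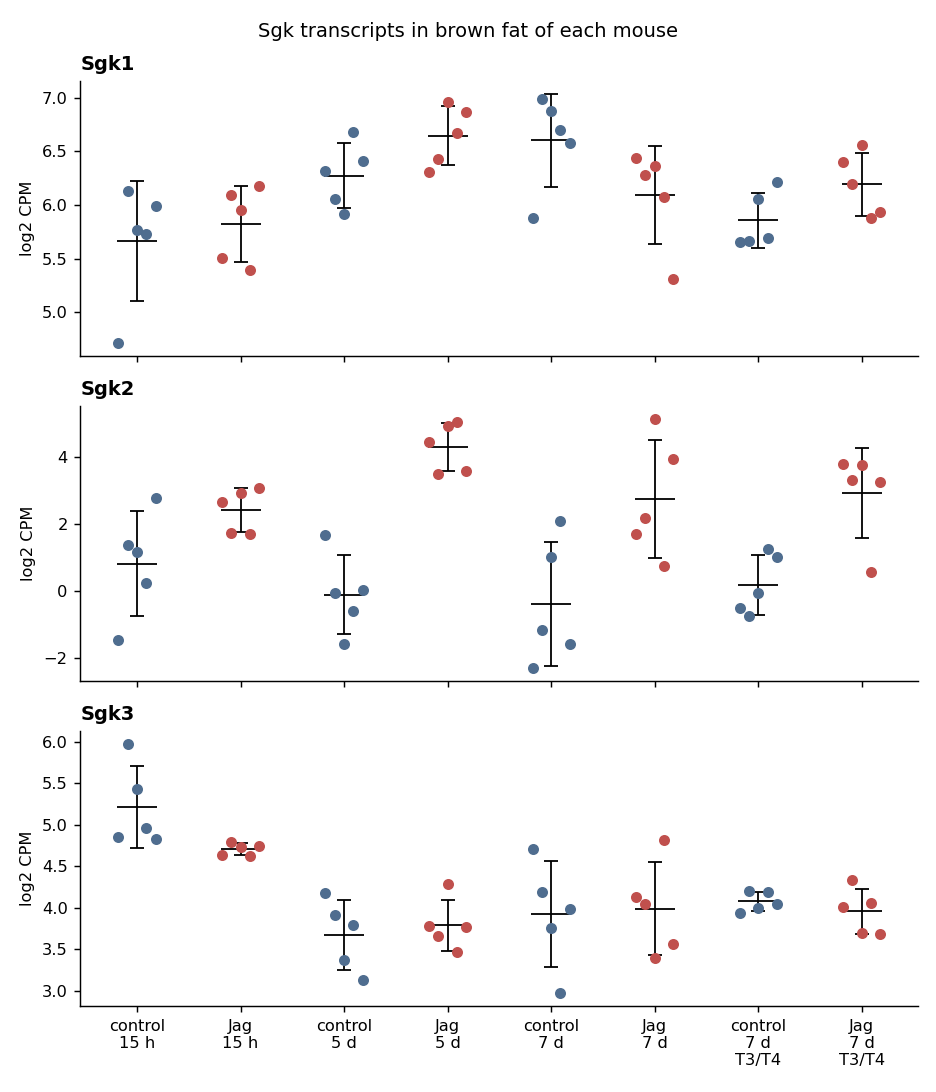
Level in log2 CPM of each Sgk gene in each mouse, by group; points are mice, the horizontal bar and whiskers are the mean and SD of 5 mice. The 4 Jag antibody groups hold the 4 highest Sgk2 means, Sgk3 is highest in the control mice at 15 h, and Sgk1 varies least in its group means.

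Sgk2 (ENSMUSG00000017868, chr2:162987330-163014127, plus strand) was the only member that edgeR called in a tested antibody comparison. It was called at 7 d without hormone only, and that call did not hold under every alternative. The mean log2 CPM of its 4 Jag antibody groups, 4.30 at 5 d, 2.93 with hormone, 2.74 at 7 d and 2.42 at 15 h, ranked above all 4 control groups, whose means were 0.82 at 15 h, 0.19 with hormone, -0.11 at 5 d and -0.38 at 7 d. This order is a description, since it includes the 5 d mice that chose the family. Of the gaps between neighbours in it, 2 were larger than their pooled SD: Jag antibody at 5 d above Jag antibody with hormone, which rests on those mice, and Jag antibody at 15 h above control at 15 h.

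At 5 d, the time that chose the family, Sgk2 log2 CPM was 4.44, 3.50, 4.92, 5.04 and 3.59 in the 5 Jag antibody mice. It was 1.67, -0.07, -1.57, -0.61 and 0.03 in the 5 control mice. The groups did not overlap, and the fitted difference was 4.22 on the log2 scale (SE 0.88), a fold of 18.7. Sgk1 differed by 0.37 (SE 0.23) and Sgk3 by 0.09 (SE 0.25) in the same mice, each with overlapping groups. As background only, 8.02% of all genes were called for the antibody at 5 d, 2.09% higher and 5.93% lower. With the muscle score (mean log2 CPM of 8 genes) as a covariate, the Sgk2 difference was 4.31 (SE 0.96). That score was 9.90 ± 3.31 in control mice and -0.14 ± 1.95 in Jag antibody mice at 5 d (SD, n = 5). The fit therefore cannot separate muscle from the antibody at 5 d, and the part of muscle was not tested. Tissue RNA cannot separate more cells that make Sgk2 from more Sgk2 RNA per cell.

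At 7 d without hormone, in other mice than those used for the choice, Sgk2 log2 CPM was 1.72, 2.17, 5.14, 0.75 and 3.95 under the Jag antibodies. In control mice it was -2.30, -1.16, 1.02, 2.10 and -1.58. All 5 Jag antibody mice were above the control median and 3 were above the highest control mouse, so the groups overlapped. The fitted difference was 3.24 (SE 0.87), or 9.47-fold higher with the Jag antibodies, and Sgk2 rose by edgeR's quasi-likelihood test with Benjamini-Hochberg adjustment (adjusted p = 0.0393). In that comparison 2.5% of all 17079 tested genes were called (adjusted p under 0.05), and 1 of the 3 family members was. The call was lost when only these 2 groups were fitted (adjusted p = 0.232), and when any 1 of 5 mice was left out (control mice 1, 2 and 5 and Jag antibody mice 8 and 10). Leaving out Jag antibody mouse 8, whose 953 counts were the most in any library, gave 2.28 (adjusted p = 0.159).

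With hormone at 7 d, Sgk2 log2 CPM was 3.78, 3.32, 3.75, 0.57 and 3.25 in Jag antibody mice. It was -0.51, -0.74, -0.06, 1.25 and 1.01 in control mice. Jag antibody mice 6, 7, 8 and 10 were above every control mouse, and mouse 9 lay within the range of the control mice. The difference was 2.94 (SE 0.84), a fold of 7.67, and did not pass the edgeR test (adjusted p = 0.0757, unadjusted p = 0.00132), where 1.14% of all genes did and 0 of 3 members did. It passed in DESeq2 (adjusted p = 0.0158), and in edgeR without mouse 9 (3.22, adjusted p = 0.0421).

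At 15 h, Sgk2 log2 CPM was 2.67, 1.72, 2.92, 1.71 and 3.08 in Jag antibody mice. In control mice it was -1.45, 1.37, 1.15, 0.24 and 2.78. All 5 Jag antibody mice were above the control median and 2 were above the highest control mouse. The difference of 1.16 (SE 0.80) did not pass the test (edgeR adjusted p = 0.672). At 15 h 1.14% of all genes and 0 of 3 members were called by edgeR (1 at an unadjusted p under 0.05, which was Sgk3, and 0 in DESeq2). From 15 h to 7 d the antibody difference grew by a fitted 2.08 (SE 1.15), a change that did not pass either (adjusted p = 0.351), with 1.31% of genes called and 0 of 3 members (0 unadjusted and 0 in DESeq2). The antibody by hormone interaction for Sgk2 was -0.31 (SE 1.15, adjusted p = 0.921), an estimate whose error spans changes of either sign.

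No hormone or time difference of Sgk2 passed the test. The hormone difference was -0.02 (SE 0.87) in control mice and -0.33 (SE 0.77) in Jag antibody mice. Between 15 h and 7 d the fitted difference was -1.01 (SE 0.85) in control mice and 1.07 (SE 0.78) in Jag antibody mice, with adjusted p = 0.341 and 0.336 in edgeR. These SEs are close to the size of the time estimates themselves, so changes of that size could not be resolved.

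Markers of the tissues in which Sgk2 is best known were low. Kidney epithelium markers summed to 0 to 1.73 CPM over the 40 mice, and 6 of 8 never exceeded 5 counts in a library. Pancreatic acinar markers summed to 2.10 to 25.7 CPM, and 4 of 8 never exceeded 5 counts. Hepatocyte markers summed to 0.832 to 135 CPM. At 7 d without hormone, where Sgk2 was higher under the Jag antibodies, hepatocyte markers were at 3.25 to 8.57 CPM in Jag antibody mice and 8.21 to 27.2 CPM in control mice, and pancreatic markers were at 4.46 to 9.85 CPM and 8.17 to 22.03 CPM. Kidney markers were at 0.242 to 1.73 CPM in Jag antibody mice and 0.114 to 1.01 CPM in control mice. The part of these cell types in the Sgk2 difference was not tested. Of the 10 annotated genes within 100 kb of Sgk2, 4 were tested (Srsf6, Ift52, Mybl2 and Gm11451), and none was called in the antibody comparisons at 15 h, 7 d or 7 d with hormone.

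Sgk1 was the only member called with hormone, in control mice, and it was also called over time in control mice, as Sgk3 was. Without hormone at 7 d its log2 CPM was 5.88, 6.99, 6.88, 6.70 and 6.58 in control mice. With hormone it was 5.66, 5.66, 6.06, 5.70 and 6.21. The mice with hormone were all below the median of those without it, 3 of them were below the lowest, and the groups overlapped through mouse 1 without hormone. Sgk1 fell by 0.78 on the log2 scale (SE 0.23, edgeR adjusted p = 0.00662), to 0.584 of its level. This comparison called 43.2% of all genes, and 1 of 3 members, a share near the background.

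In Jag antibody mice the same hormone gave no such difference. Their Sgk1 log2 CPM was 6.44, 6.28, 6.36, 6.08 and 5.31 without hormone and 6.40, 6.19, 6.56, 5.88 and 5.93 with it. The groups overlapped, with 2 of 5 hormone mice above the median of the others, and the difference was 0.07 (SE 0.23, edgeR adjusted p = 0.862), in a comparison that called 9.5% of genes and 0 of 3 members (0 unadjusted and 0 in DESeq2). The difference between the 2 hormone effects was itself 0.85 (SE 0.32) and did not pass over all genes (edgeR adjusted p = 0.374, unadjusted p = 0.0125). The interaction called 0.00586% of genes, which is 1 gene, and 0 of 3 members (1 unadjusted and 0 in DESeq2). The antibody differences behind it were -0.51 (SE 0.23, edgeR adjusted p = 0.205) without hormone and 0.34 (SE 0.23, edgeR adjusted p = 0.612) with it, so a different hormone effect under the Jag antibodies was not shown.

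At 15 h control mice had Sgk1 log2 CPM of 4.71, 6.13, 5.76, 5.73 and 5.99. All 5 control mice at 7 d were above the median of these and 4 were above the highest. Sgk1 rose by 0.91 from 15 h to 7 d (SE 0.23, edgeR adjusted p = 0.0017), or 1.88-fold, where 45.1% of genes and 2 of 3 members were called. This comparison and the hormone comparison share the control mice at 7 d, the group with the second-highest Sgk1 mean (6.61 ± 0.43, SD, n = 5), so they are not separate evidence. In Jag antibody mice Sgk1 was 5.51, 6.09, 5.95, 5.40 and 6.18 at 15 h, and the rise to 7 d was 0.29 (SE 0.23, edgeR adjusted p = 0.381), where 18.3% of genes and 0 of 3 members were called (Sgk3 unadjusted and in DESeq2). The change over time differed between antibodies by -0.62 (SE 0.32, edgeR adjusted p = 0.320).

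The order of the 8 Sgk1 group means ran from 6.65 in Jag antibody mice at 5 d to 5.67 in control mice at 15 h, and no neighbours in it differed by more than their pooled SD. Myeloid markers moved with these 2 comparisons: the myeloid score (mean log2 CPM of 10 genes) was 2.19 ± 0.71 in control mice at 7 d, 3.897 ± 0.49 with hormone and 5.03 ± 2.55 at 15 h (SD, n = 5). Other markers moved as well. With hormone in control mice 5 of 8 brown adipocyte markers fell (median of the list -1.69), 6 of 10 myeloid markers rose (1.91), and 5 of 8 endothelial markers rose and 1 fell (0.64). Over time in control mice 4 of 8 brown adipocyte markers rose (1.04), 10 of 10 myeloid markers fell (-4.91) and 3 of 8 endothelial markers rose (0.15). With the myeloid score as a covariate the hormone difference of Sgk1 was -0.97 (edgeR adjusted p = 0.00246) and the time difference 1.24 (edgeR adjusted p = 0.00323). Without it they were -0.78 and 0.91. The score itself differed between the compared groups, so this fit cannot separate it from hormone or time. The part of the myeloid, brown adipocyte and endothelial markers in the Sgk1 differences was not tested.

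**Figure D3:**
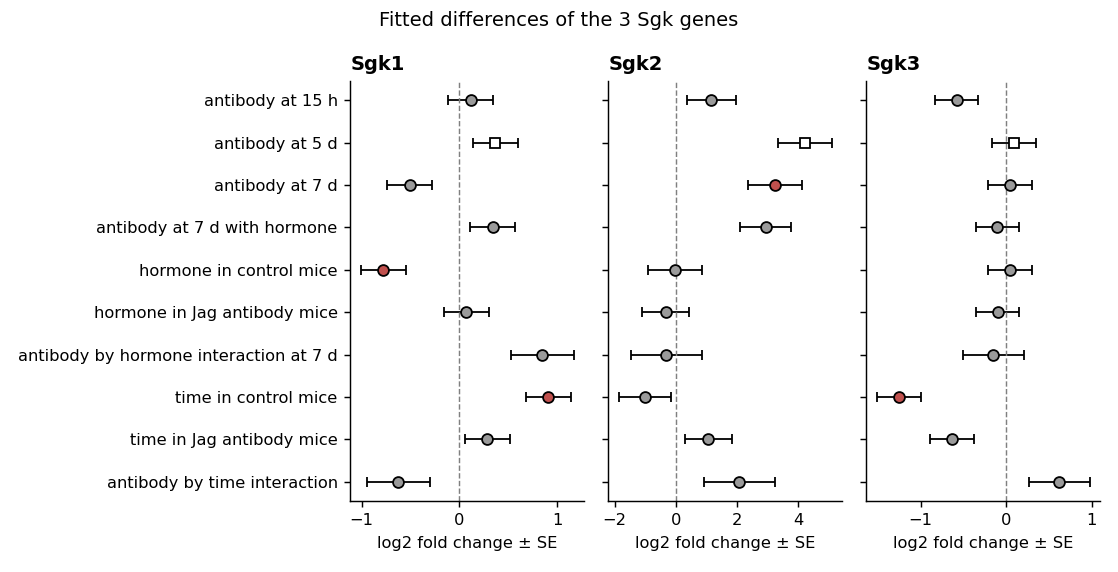
Fitted log2 fold change ± SE of each Sgk gene in each comparison of groups or interaction; red points passed the edgeR test at adjusted p under 0.05, grey points did not, and open squares mark the 5 d antibody difference, which chose the family and has no test. Sgk2 stands at 3.24 at 7 d, Sgk1 at -0.78 with hormone in control mice, and Sgk3 at -1.25 over time in control mice.

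Sgk3 (ENSMUSG00000025915, chr1:9798107-9900845, plus strand) was the member that fell after 15 h. In control mice its log2 CPM was 4.85, 5.98, 5.43, 4.96 and 4.83 at 15 h. At 7 d it was 4.70, 4.19, 3.75, 2.97 and 3.99. All 5 mice at 7 d were below the lowest at 15 h, and Sgk3 fell by 1.25 on the log2 scale (SE 0.26, edgeR adjusted p = 0.000227), to 0.419 of its level. It was thus the other member of the 2 called in that comparison, in the opposite direction to Sgk1.

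In Jag antibody mice Sgk3 was 4.63, 4.80, 4.73, 4.62 and 4.74 at 15 h, a tight group. At 7 d it was 4.13, 4.04, 3.40, 4.82 and 3.56, and 4 of these 5 mice were below all of the 15 h mice. The difference of -0.63 (SE 0.25) did not pass (edgeR adjusted p = 0.0750), but passed without mouse 9 at 7 d (-0.88, adjusted p = 0.0168) and in DESeq2 (adjusted p = 0.0372). The change over time did not differ between antibodies past the test (0.62, SE 0.36, edgeR adjusted p = 0.370). At 15 h every Jag antibody mouse was below every control mouse in Sgk3. How many of all genes were separated in this way was not counted, so the separation is a description. The Sgk3 antibody difference at 15 h, -0.58 (SE 0.25), did not pass either (edgeR adjusted p = 0.312). Under alternatives other than leaving out a mouse, a myeloid score covariate among them, it ran from -0.57 to -0.13 and was never called. Myeloid markers were lower in the same comparison (list median -2.40, 2 of 10 called lower).

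By 5 d and 7 d the 6 Sgk3 group means lay between 3.68 and 4.08 log2 CPM, and no neighbours among them differed by more than their pooled SD. Antibody differences were 0.04 (SE 0.25) at 7 d and -0.10 (SE 0.25) with hormone, and hormone differences were 0.05 (SE 0.25) in control mice and -0.10 (SE 0.25) in Jag antibody mice, none past the test. Sgk3 has the longest exonic length of the family, 14311 bases against 4903 for Sgk1 and 3412 for Sgk2, and long genes moved with the groups. For each library, log2 CPM minus the gene's mean over the 40 libraries was fitted on log2 exonic length. The slope of this deviation was 0.06 ± 0.03 in control mice at 15 h, -0.16 ± 0.13 at 7 d and 0.14 ± 0.06 with hormone (SD, n = 5). With that trend taken out, the difference over time in control mice was -0.70 (edgeR adjusted p = 0.0205), and with the myeloid score it was -0.81 (edgeR adjusted p = 0.0397). With the length trend taken out the hormone difference in control mice turned from 0.05 to -0.54 (edgeR adjusted p = 0.0831). Sgk3 also overlaps the pseudogene Gm6195 and the small RNA gene Gm22607, both on the opposite strand, and whether counting used the strand is not given in the sources used here. The 6 tested neighbours within 100 kb of Sgk3 are named after their values were seen. Time in control mice called 45.1% of all genes. There Mybl1 fell by 1.74 (edgeR adjusted p = 0.00457) and Vcpip1 by 1.22 (edgeR adjusted p = 0.000452), while Gm6195 rose by 1.15 (edgeR adjusted p = 0.00593). The other neighbours were not called: 1700034P13Rik at 1.20, Snhg6 at 0.59 and Tcf24 at -1.05.

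The wider pathway was read from 53 genes in 6 lists, of which 49 were tested. In edgeR the antibody called 0 at 15 h (7 unadjusted, 1 in DESeq2), 2 at 7 d, both higher, and 1 with hormone, also higher. Over all tested genes the antibody called 0.234% higher and 0.902% lower at 15 h, 1.21% higher and 1.29% lower at 7 d, and 0.697% higher and 0.439% lower with hormone. Hormone in control mice called 18 of 49 higher and 4 lower, beside 20.3% higher and 22.9% lower over all genes. In Jag antibody mice hormone called 5 higher and 1 lower, beside 4.29% and 5.21%. Time called 7 higher and 12 lower in control mice, beside 21.6% and 23.5%, and 7 higher and 2 lower in Jag antibody mice, beside 10.4% and 7.93%. The antibody by hormone interaction called 0 of 49 (0 unadjusted and 0 in DESeq2), and the change of the antibody difference over time called 1, Foxo3 (1.23, SE 0.29, edgeR adjusted p = 0.0284), beside 1.04% of all genes higher and 0.269% lower.

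Of the genes upstream of SGK, 3 of 10 changed with hormone in control mice, beside 43.2% of all genes, so the share was not above the background. Pdpk1, which encodes PDK1, rose by 0.85 (SE 0.29, edgeR adjusted p = 0.0169), Pik3ca, a catalytic subunit of PI3-kinase, rose by 0.51, and Mapkap1, a subunit of mTOR complex 2, fell by 0.43. Over time in control mice 4 of 10 were called, beside 45.1% of all genes. Among them Mtor rose by 1.22, while Rictor, the defining subunit of mTOR complex 2, fell by 1.35 (edgeR adjusted p = 0.000559). The median over the 10 genes was 0.20 for hormone in control mice, where the median of all tested genes was 0.04, and 0.12 for the antibody at 7 d, where it was 0.05.

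Among receptors of the inducing hormones, the transcripts of the glucocorticoid receptor Nr3c1 and the mineralocorticoid receptor Nr3c2 passed in none of the comparisons tested. With hormone in control mice they differed by 0.18 (SE 0.24) and 0.02 (SE 0.24). In the same comparison the growth factor receptor Igf1r rose by 1.21 and the insulin receptor Insr by 0.66. Hsd11b1, whose enzyme regenerates active glucocorticoid inside cells, fell by 1.54 (SE 0.45, edgeR adjusted p = 0.0060). Thus 3 of the 5 genes of this list were called, beside 43.2% of all genes. None of the 5 was called by edgeR or DESeq2 for the antibody or for hormone in Jag antibody mice (2 unadjusted for the antibody at 7 d, 0 otherwise).

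Of 5 genes for related AGC kinases, Akt1 alone was called with hormone in control mice (0.53, SE 0.17, edgeR adjusted p = 0.0125), beside 43.2% of all genes. Akt2 was at -0.37 (SE 0.17, edgeR adjusted p = 0.0747). In Jag antibody mice 2 of 5 were called over time, beside 18.3% of all genes: Akt1 rose by 0.55 and the S6 kinase gene Rps6kb2 by 0.57. The antibody comparisons called 0 of 5 in edgeR and DESeq2 (1 unadjusted at 15 h, 1 at 7 d and 0 with hormone).

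None of the 12 targets and partners of SGK was called with the antibody at 15 h, 7 d or 7 d with hormone in edgeR or DESeq2 (2, 2 and 0 unadjusted). Of the 12, 6 rose and 1 fell with hormone in control mice, beside 43.2% of all genes called, and 3 rose and 1 fell in Jag antibody mice, beside 9.5%. In the 5 d mice that chose the family, Foxo1 was 1.08 higher with the antibody (SE 0.28), given without a test. Foxo3, a transcription factor that SGK and AKT phosphorylate, rose by 1.10 (SE 0.21, edgeR adjusted p = 0.000125) in control mice and by 0.69 in Jag antibody mice (edgeR adjusted p = 0.0292), and the kinase gene Wnk1 rose by 0.97 in control mice. Stub1, a ubiquitin ligase gene, fell by 1.12 in control mice and by 0.99 in Jag antibody mice. In the same order, the transcription factor gene Foxo1 rose by 1.12 and 1.02, and the kinase gene Wnk4 by 2.20 and 2.19. For none of Foxo1, Foxo3 and Wnk4 did the hormone difference itself pass as different between antibodies (edgeR adjusted p = 0.928, 0.520 and 0.992). The textbook substrates Nedd4l (0.37, SE 0.17, edgeR adjusted p = 0.0782) and Ndrg1 (0.49, SE 0.23, edgeR adjusted p = 0.0866) did not pass with hormone in control mice, and neither did with the antibody at any time tested. Ndrg2 rose over time by 0.90 in control mice and by 1.33 in Jag antibody mice.

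Channels and transporters regulated by SGK were tested in 8 of 12 cases, since Scnn1b, Slc9a3, Kcna3 and Slc12a3 were too low. With hormone in control mice 3 of 8 rose, beside 20.3% of all genes called higher, among them the potassium channel Kcnq1 by 1.07. Over time in control mice 2 of 8 rose and 3 fell, beside 21.6% higher and 23.5% lower over all genes. Among them the glucose transporter of insulin-responsive fat, Slc2a4, rose by 1.48 and the widespread glucose transporter Slc2a1 fell by 1.54. The amino acid transporter Slc1a5 rose by 0.64 and the epithelial sodium channel subunit Scnn1a fell by 1.45, from a low level of 0.75 log2 CPM. The antibody called 0 of 8 in edgeR (4 unadjusted at 15 h, 0 at 7 d and 2 with hormone; 1 in DESeq2, at 15 h).

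The genes that glucocorticoids induce are the list to read beside Sgk1, since Sgk1 is itself a textbook member. In control mice hormone raised 4 of 9 and lowered 1, beside 20.3% higher and 22.9% lower over all genes. Fkbp5, a co-chaperone of steroid receptors, rose by 2.61 (SE 0.61, edgeR adjusted p = 0.00102), and Zbtb16 by 2.29 (SE 0.53, edgeR adjusted p = 0.000821). Klf9 rose by 1.39 and Pdk4 by 0.78. The part of glucocorticoids in these rises was not tested. Sgk1 fell in the same mice, as did the metallothionein gene Mt1 by 2.00, and the dexamethasone-induced gene Tsc22d3 was at 0.19 (SE 0.29, edgeR adjusted p = 0.625). The median of the 9 genes was 0.19, where that of all genes was 0.04.

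The antibody at 7 d raised 2 of these 9 genes, beside 1.21% of all genes called higher. Fkbp5 rose by 2.41 (SE 0.61, edgeR adjusted p = 0.0282) and Tsc22d3 by 1.35 (SE 0.29, edgeR adjusted p = 0.00965). The list's median was 1.00, where that of all genes was 0.05, and 6 of 9 estimates were above 0. Sgk1, at -0.51 and not called, lay on the other side of 0 from both. With hormone Tsc22d3 was again higher in Jag antibody mice, by 1.15 (SE 0.29, edgeR adjusted p = 0.0383). The 2 comparisons at 7 d use separate mice. Tsc22d3 was at -0.11 (SE 0.29) at 15 h, and no gene of the list was called then.

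**Figure D4:**
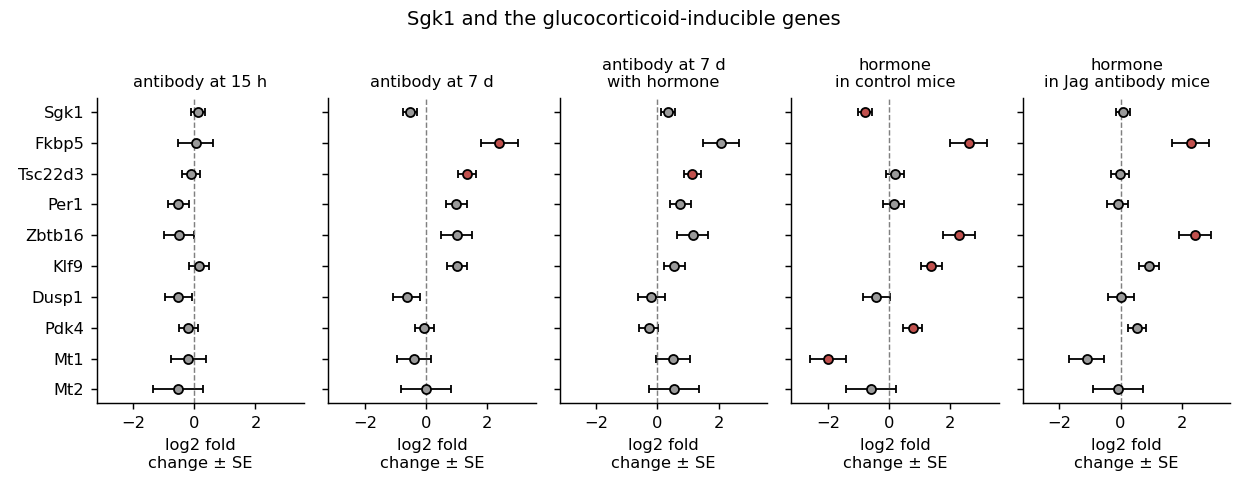
Fitted log2 fold change ± SE of Sgk1 and 9 glucocorticoid-inducible genes in 5 comparisons of 5 against 5 mice; red points passed the edgeR test at adjusted p under 0.05. Fkbp5 and Tsc22d3 are higher with the antibody at 7 d while Sgk1 is at -0.51, and with hormone in control mice Sgk1 is at -0.78 while Fkbp5 is at 2.61.

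In control mice, where Sgk1 rose over time, Fkbp5 fell by 1.94 and Zbtb16 by 2.94 from 15 h to 7 d, and 3 of 9 fell and 0 rose, beside 45.1% of all genes called; 2 of the 9 estimates were above 0. In Jag antibody mice the clock gene Per1 rose by 2.13 and Tsc22d3 by 1.43, Zbtb16 fell by 1.41, and Sgk1 was at 0.29. Of the 9 estimates 5 were above 0 there. The hour of day at collection is not given in the sources used here, and its part in these values was not tested.

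The 3 members did not move together. Over the 40 libraries Pearson's r of log2 CPM was 0.27 between Sgk1 and Sgk2, -0.40 between Sgk1 and Sgk3 and -0.17 between Sgk2 and Sgk3. With group means removed these were 0.41, 0.09 and -0.37. These values describe libraries that share groups, depth and composition.

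Among 12139 genes with a mean of at least 1 log2 CPM, the pattern most like that of Sgk2 was Cntfr, the receptor subunit for ciliary neurotrophic factor, at r = 0.835 (Spearman's rho 0.830) over 40 mice. It was 0.834 over the 30 mice without those at 5 d, 0.709 with group means removed, and 0.798 without the 2 mice most extreme in Sgk2. Cntfr log2 CPM ran from 2.57 ± 1.12 in control mice at 7 d to 5.58 ± 0.38 in Jag antibody mice at 5 d (SD, n = 5). Mtmr14 (0.789), Tbc1d20 (0.787), A530076I17Rik (0.729) and Gramd1b (0.727) followed. After removal of group means, Cntfr and Tbc1d20 (0.671) were again among the 5 nearest, with St5 (0.674), Gabarapl1 (0.629) and Hs1bp3 (0.621).

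**Figure D5:**
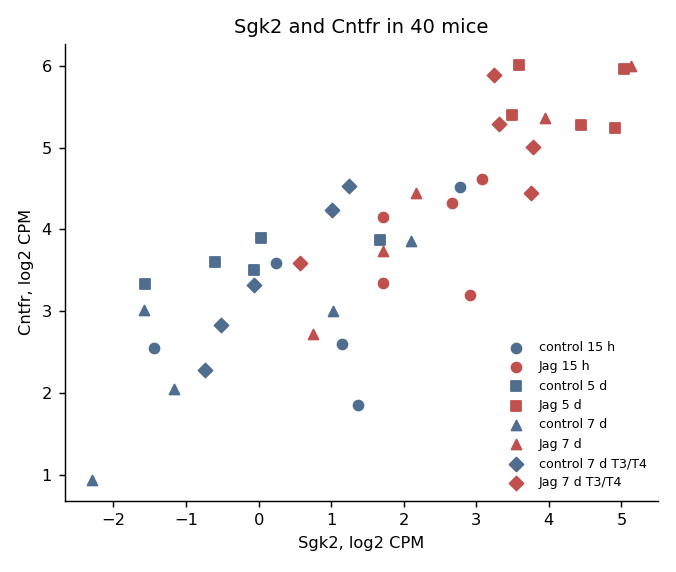
Log2 CPM of Sgk2 (x axis) and Cntfr (y axis) in 40 mice; each point is 1 mouse, blue for control and red for Jag antibody, with the shape giving the time and hormone. Points rise from lower left to upper right (r = 0.835), and Jag antibody mice at 5 d sit at the upper right.

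For Sgk1 the most similar genes were Klf2 (r = 0.693), a transcription factor of endothelium and other cells, Pdgfb (0.639), Mapkapk2 (0.629), Ndel1 (0.627) and Gata2 (0.627). Klf2 had r = 0.712 without the 5 d mice and 0.657 without the 2 mice most extreme in Sgk1. With group means removed none of these 5 was among the nearest, which were Spop (0.673), Impdh2 (0.611), Errfi1 (0.607), Pwp2 (0.601) and Pde4b (0.599). Sgk3 had the closest matches of the family. They were Stx7, a syntaxin of the endosome, at r = 0.894, Ssr3 (0.886), Snap23 (0.881), Zeb2 (0.863) and Sdcbp (0.860). Stx7 stayed at 0.902 without the 5 d mice. After removal of group means Ssr3 (0.836) was again among the nearest, behind Arcn1 (0.865) and ahead of Snx4 (0.834), Rp2 (0.819) and Mis12 (0.815).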

How the data were processed

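Bulk RNA sequencing of brown adipose tissue from 40 mice was used, as single-end reads of 50 bases on a HiSeq 4000 per the labels' protocols. GSNAP and limma are named in the submitters' processing notes; the genome build, the counting program and its use of strand are not given in the sources used here. The authors deposited whole-number counts per Ensembl gene and, in a second table, FPKM values for the same genes and mice. Symbols came from a table of identifiers that matched 52403 of 52636 genes, and positions and exonic lengths from GENCODE M21 on GRCm38. No 2 libraries were identical.

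The members, gene lists, marker lists and tests were chosen with earlier results of these data known. The main test was the quasi-likelihood F test of edgeR 4.0.16 (R 4.3.3) on 17079 genes kept by filterByExpr, with TMM scaling, 1 robust fit of all 40 libraries with a mean per group, and Benjamini-Hochberg adjustment over all tested genes at 0.05. Log2 CPM used a prior count of 2, and SEs are those implied by the F statistic. Named genes are the 3 members, per comparison and list up to 2 called genes per direction with the lowest adjusted p, 9 standing genes (Nr3c1, Nr3c2, Pdpk1, Akt1, Akt2, Ndrg1, Ndrg2, Nedd4l and Tsc22d3), the genes most similar by Pearson's r, and those within 100 kb of Sgk2. Foxo1, Wnk4, Klf9 and Pdk4 in control mice, Foxo3 in Jag antibody mice, Foxo1 at 5 d and the neighbours of Sgk3 were named after their values were seen. A further gene that the rule selected is not reported here. The counting error of single libraries is widest for Sgk2.

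Alternatives were DESeq2 1.42.0, RLE size factors, no low-count filter, a fit of only the compared groups, a muscle score covariate, limma 3.58.1 on log2(FPKM + 1) and log2(FPKM + 0.1), a replicate block, and leaving out each mouse. A myeloid score covariate and a length trend offset were added after seeing the data. The fit was tested on simulated counts.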

Additional observations from a re-analysis of the deposited data

Results flagged for a closer look

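In 2 of 24 groups of 5 mice (8 groups for each of 3 genes), 1 mouse stood apart from the others by Dixon's ratio of its gap to the whole range, above the critical value of 0.71; chance alone flags about 1 in 20 groups. Sgk1 in control mouse 1 at 15 h was at 4.71 log2 CPM, below the nearest mouse at 5.73 (ratio 0.719). Without it the rise of Sgk1 from 15 h to 7 d in control mice was 0.74 (edgeR adjusted p = 0.00724). Sgk2 in Jag antibody mouse 9 with hormone was at 0.574 log2 CPM, below the nearest mouse at 3.25 (ratio 0.835). Without it the antibody difference with hormone was 3.22 and was called by edgeR (adjusted p = 0.0421), where it was 2.94 and not called with all mice.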

How the results depend on the processing

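Of 261 values of the tested differences of the 3 genes under alternatives other than leaving out a mouse, 236 kept their direction and their side of the threshold, and of 330 with 1 mouse left out, 304 did. Under alternatives other than leaving out a mouse, Sgk1 in control mice ran from -0.998 to -0.298 with hormone and from 0.344 to 1.24 over time. Sgk3 ran from -1.29 to -0.250 over time in control mice. The 3 calls of Sgk1 and Sgk3 (hormone and time) held under every alternative and with any 1 mouse left out, though not at the same size. The Sgk2 antibody call at 7 d did not: it was 3.28 (adjusted p = 0.0860) without the low-count filter, 3.23 (0.232) with only the compared groups, 0.385 (0.107) by limma on log2(FPKM + 1), where the pseudocount shrinks low values, and 1.43 (0.0573) on log2(FPKM + 0.1). At 5 d, described without a test, Sgk2 was 0.755 on log2(FPKM + 1) and Sgk3 turned from 0.092 to -0.081 with the muscle score and -0.107 with the length trend. The Sgk2 antibody difference with hormone was called at 2.92 (0.0271) with only the compared groups, 1.51 (0.0488) on log2(FPKM + 0.1) and 2.94 (0.0158) in DESeq2, and Sgk3 over time in Jag antibody mice at -0.48 (0.0369) on log2(FPKM + 0.1) and -0.67 (0.0372) in DESeq2.

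Tested differences that were not called turned sign in 16 cases, 2 of them under the replicate block given below. The others were Sgk3 with the antibody at 7 d (-0.0029 with the myeloid score, -0.15 with the length trend), Sgk2 with hormone in control mice (0.0284 without filter, 0.0018 with the muscle score, 0.0044 with the length trend, 0.0035 with only the compared groups, 0.0172 on log2(FPKM + 0.1)), Sgk3 with hormone in control mice (-0.18 and -0.54 with the myeloid score and length trend), Sgk1 with hormone in Jag antibody mice (-0.068 and -0.026 with the same), Sgk2 with hormone in Jag antibody mice (0.099) and its interaction (0.082) on log2(FPKM + 0.1), and the Sgk3 interaction with the length trend (0.12). The cause was not tested.

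Mice share title numbers across time and hormone but are different animals. Deviations of same-numbered mice had mean correlations of 0.098 to 0.185 over 4 pairs of groups, and a mouse matched its own number best in 1 or 2 of 5 cases, so the numbers were not taken as pairs. With a replicate block Sgk1 was at -0.75 with hormone and 0.93 over time in control mice, Sgk3 at -1.27 over time, and Sgk2 at 0.080 with hormone in Jag antibody mice and 0.14 in the interaction. The block moved the genes called for antibody by time from 223 to 35.

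With 1 mouse left out, ranges that crossed 0 or a threshold were -0.055 to 0.21 (Sgk3, antibody at 5 d), 2.28 to 4.16 (Sgk2, antibody at 7 d), 2.74 to 3.25 (Sgk2, antibody with hormone), -0.37 to 0.91 (Sgk2, hormone in control mice), -0.59 to 0.63 (Sgk2, hormone in Jag antibody mice), -1.21 to 0.66 (Sgk2, interaction), -0.057 to 0.25 (Sgk1, antibody at 15 h), -0.078 to 0.16 (Sgk1, hormone in Jag antibody mice), -0.20 to 0.28 (Sgk3, antibody at 7 d), -0.11 to 0.28 and -0.23 to 0.17 (Sgk3, hormone in control and Jag antibody mice), -0.36 to 0.12 (Sgk3, interaction) and -0.88 to -0.50 (Sgk3, time in Jag antibody mice).

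Counts of genes called over all alternatives, leaving out a mouse included, ran from 0 to 753 at 15 h (194 in the fit reported), 53 to 858 at 7 d (427), 80 to 694 with hormone (194), 990 to 2782 for hormone in Jag antibody mice (1622), 0 to 36 for the antibody by hormone interaction (1), 4740 to 8173 and 1653 to 4221 for time in control and Jag antibody mice (7698 and 3126) and 7 to 696 for antibody by time (223). Pathway genes called, without leaving out mice, ran from 0 to 1 at 15 h, 0 to 3 at 7 d, 0 to 3 with hormone, 5 to 12 for hormone in Jag antibody mice, 9 to 23 and 7 to 14 for time, and 0 to 5 for antibody by time. Depth limits Sgk2 most, with as few as 2 counts in a control library.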
